A study of Mus musculus with 69 samples.

Results

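Phospholipase C (PLC) genes were followed in ribosome-bound mRNA of parvalbumin (PV) interneurons and Camk2a neurons of mouse cortex. The 10 members were Plcb1, Plcb3, Plcb4, Plcg1, Plch1, Plch2, Plcl1, Plcl2, Plcxd2 and Plcxd3, chosen by gene symbol from 17634 genes of the count table. All 10 had a row in it, and all 10 passed the filter on low counts in each of the 17 comparisons. The choice followed measured values, since Plch1 and Plcxd2 had been noted as lower in PV neurons of knockout mice. Values of KO against WT PV libraries are therefore given for the members as a description, and where their calls are counted nothing is read from the count.

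PLC enzymes cut the membrane lipid phosphatidylinositol bisphosphate (PIP2) into inositol trisphosphate (IP3), which releases calcium from internal stores, and diacylglycerol, which recruits protein kinase C. The beta enzymes (Plcb1, Plcb3, Plcb4) are switched on by receptors coupled to Gq proteins, such as muscarinic receptors. The gamma enzyme Plcg1 acts below receptor tyrosine kinases, and the eta enzymes (Plch1, Plch2) are calcium-sensitive and most abundant in neurons. The PLC-like proteins (Plcl1, Plcl2) are catalytically inactive, bind IP3 and take part in the traffic of GABA-A receptors. Plcxd2 and Plcxd3 encode small proteins that carry the catalytic X domain without most of the other PLC domains.

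The libraries came from Fmr1 KO and WT mice of 70 to 100 days of age that carried Rpl22HA/HA and either PV-Cre or Camk2a-Cre, so that every group shared the HA-tagged ribosomal protein and differed in the cell class that a Cre driver tagged. Fmr1 encodes FMRP, an RNA-binding protein of translating ribosomes whose loss causes fragile X syndrome in humans. RiboTag immunoprecipitation with an anti-HA antibody recovered ribosome-bound mRNA of visual (V1) and somatosensory (S1) primary cortex, and the 69 libraries were PV KO V1, PV WT V1, PV KO S1 and PV WT S1 (10 each), Camk2a KO V1 (6), Camk2a WT V1 (8), Camk2a KO S1 (7) and Camk2a WT S1 (8), with both sexes among them. They came from 37 animals, of which 32 gave both areas. A Camk2a-Cre driver marks mainly excitatory pyramidal cells, and RNA of untagged cells remains in an immunoprecipitate.

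The sum of estimated counts per library lay between 27.64 and 49.11 M. Levels are given as CPM, counts scaled to the effective size of a library. Fmr1 lay between 6.51 and 14.7 CPM in KO libraries and between 35.9 and 93.9 CPM in WT libraries. The summed level of 12 PV interneuron markers was 9073 to 12350 CPM in PV libraries and 258 to 1863 CPM in Camk2a libraries, and that of 12 excitatory markers was 1328 to 2494 CPM in PV libraries and 13110 to 16850 CPM in Camk2a libraries. Within Camk2a, the animals C3 (KO), C18 and C19 (both WT) held more PV marker mRNA than the rest. An area score was built from genes picked for a V1 to S1 difference in the other cell class. It placed the V1 libraries of P9, P24 (KO) and P22 (WT) and the S1 library of P22 with the opposite area. It did so for the V1 libraries of C18, C19 and C24 (all WT) too, and for the S1 library of C24. That S1 library was the only library of Batch 2. The score is the mean log2 CPM of 50 genes higher in V1 minus that of 50 genes higher in S1. PV libraries were scored with genes picked in Camk2a. In Camk2a WT, with C24 included, edgeR called only 56 genes between areas, 40 higher and 16 lower in V1. A list of 50 genes per direction from there thus holds genes not shown to differ between areas. In C24 the score was 0.14 in the V1 library and 0.902 in the S1 library, while the other Camk2a WT libraries had 0.184 to 0.78 in V1 and −0.696 to 0.061 in S1. In P22 it was 0.857 in V1 and 1.353 in S1, while the other PV WT libraries had 1.208 to 1.481 in V1 and 0.834 to 1.02 in S1. In P9 it was 0.961 in V1 and 1.174 in S1, the latter just under the PV midpoint of 1.175. The other PV KO libraries had 1.05 to 1.546 in V1 and 0.619 to 1.145 in S1. The area labels of C24, P22 and P9 may thus be exchanged, which was not tested. Every value of these animals by area is given under its label. In 3 animals the labelled sex went against Y-linked genes. Some fits left out the animals set apart by PV markers or area score. Apart from KO against WT in PV, calls of members that change in those fits are given both ways. Animals with a sex mismatch were left out only singly, within the counts of fits without 1 animal.

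Levels of different genes were set side by side as CPM per kb of merged exon length. In PV WT V1 libraries the order was Plch2 (22.0 ± 1.86 CPM per kb, SD, n = 10), Plcb1 (18.5 ± 1.38), Plcl2 (16.97 ± 2.01), Plcg1 (11.3 ± 0.976), Plcxd2 (7.38 ± 0.879), Plcb4 (6.73 ± 0.659), Plcl1 (4.95 ± 0.675), Plch1 (3.98 ± 0.358), Plcxd3 (2.93 ± 0.798) and Plcb3 (0.415 ± 0.106). The intervals of 1 SD overlapped between Plcb1 and Plcl2, between Plcxd2 and Plcb4, between Plcl1 and Plch1 and between Plch1 and Plcxd3. In Camk2a WT V1 libraries (n = 8) Plcb1 led with 41.1 ± 4.88 CPM per kb, followed by Plcxd2 (25.9 ± 4.03), Plcl2 (23.2 ± 2.39), Plcb4 (14.4 ± 3.81), Plch2 (9.83 ± 1.52), Plcg1 (7.32 ± 0.574), Plcl1 (3.08 ± 0.273), Plch1 (0.980 ± 0.492), Plcxd3 (0.675 ± 0.249) and Plcb3 (0.103 ± 0.0319). There the intervals of 1 SD overlapped between Plcxd2 and Plcl2, between Plcb4 and Plch2 and between Plch1 and Plcxd3. An eta enzyme thus headed the order in PV neurons and a beta enzyme in Camk2a neurons.

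**Figure D1:**
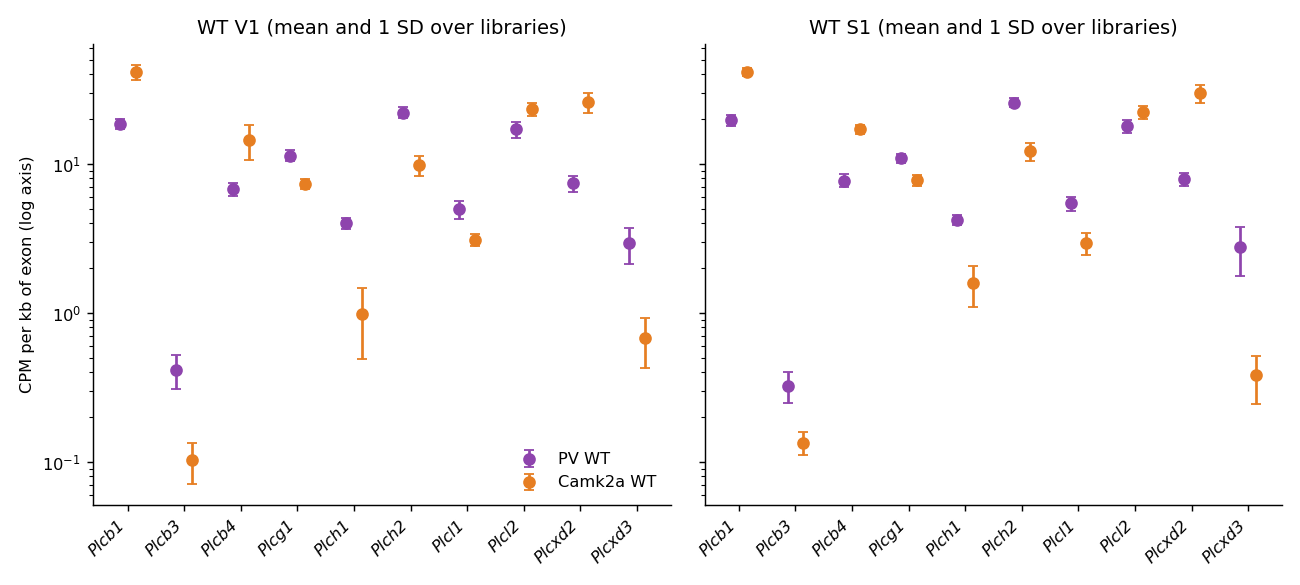
Mean CPM per kb of exon (log axis, whiskers 1 SD over libraries) of the 10 members in PV WT and Camk2a WT libraries of V1 and S1. Plch1, Plch2, Plcb3, Plcg1, Plcl1 and Plcxd3 sit higher in PV, and Plcb1, Plcb4, Plcl2 and Plcxd2 sit higher in Camk2a.

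The members split by cell class. In WT V1, 10 of 10 members differed between PV and Camk2a libraries at an adjusted p under 0.05 in edgeR's quasi-likelihood test with Benjamini-Hochberg adjustment over all genes, 6 higher and 4 lower in PV, where 77.3% of all genes tested were called (39.8% higher and 37.5% lower). The same 6 and 4 members were called in WT S1, against 77.2% of genes (39.1% higher and 38.1% lower). A share of 10 in 10 stands near these backgrounds, so the class split is read from sizes and directions. In KO libraries 9 of 10 members were called in V1, against 74.3% of genes (38.3% higher and 35.9% lower), and 10 of 10 in S1, against 77.7% (39.8% higher and 37.9% lower), with the same directions. Without C18, C19, C24 and P22 the 10 members kept their directions and calls in WT V1 and in WT S1, and the value that moved most was that of Plch1 in WT V1 (2.52, SE 0.099, in place of 2.10). Without C3, P9 and P24 the directions and calls in KO V1 and KO S1 were the same too.

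Many markers of glia and vessels were also higher in PV libraries of WT V1, while those of other interneurons went the other way. The 11 markers of other interneurons summed to 158.7 to 223.6 CPM in PV WT V1 and 986.7 to 1425 CPM in Camk2a WT V1 libraries. Among markers tested, 8 of 10 for microglia (median log2 difference 2.22), 6 of 6 for oligodendrocyte precursors (2.10), 9 of 10 for oligodendrocytes (1.54), 7 of 9 for vascular cells (1.91) and 6 of 10 for astrocytes (1.11) were called higher. The microglial markers summed to 32.45 to 54.8 CPM in PV WT V1 libraries and 18.5 to 23.08 CPM in Camk2a WT V1 libraries. The vascular markers summed to 13.5 to 45.25 CPM in PV WT V1 and 9.406 to 12.42 CPM in Camk2a WT V1 libraries. Those of oligodendrocyte precursors summed to 12.02 to 35.1 CPM in PV WT V1 and 4.906 to 7.727 CPM in Camk2a WT V1 libraries. Oligodendrocyte markers summed to 405.3 to 1007 CPM in PV WT V1 and 273.4 to 446.3 CPM in Camk2a WT V1 libraries. Astrocyte markers summed to 478.2 to 773.9 CPM in PV WT V1 and 750.4 to 1047 CPM in Camk2a WT V1 libraries. The median of that sum was lower in PV (675 CPM) than in Camk2a (897.6 CPM). The part of these cells in the class differences of members was not tested.

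The beta enzymes divided among themselves. Plcb1 had 178, 206 and 231 CPM (lowest, median, highest) in PV WT V1 libraries, against 383, 447 and 555 CPM in Camk2a WT V1 libraries, and the groups did not overlap. Its PV minus Camk2a log2 fold change was −1.09 (SE 0.059, adjusted p = 1.55e-12) in WT V1, and the values were −1.06 in WT S1, −1.17 in KO V1 and −1.32 in KO S1. Plcb4 was also lower in PV, with 51.1, 60.4 and 73.8 CPM in PV WT V1 libraries and 97.0, 121 and 209 CPM in Camk2a WT V1 libraries. The log2 difference of Plcb4 was −1.04 (SE 0.114, adjusted p = 1.06e-07) in WT V1 and −1.13 in WT S1. Plcb3 ran the other way at a level near the bottom of the family, with 1.60 to 3.88 CPM in PV WT V1 libraries and 0.446 to 1.05 CPM in Camk2a WT V1 libraries. Its log2 difference was 2.07 (SE 0.212, adjusted p = 2.50e-08) in WT V1 and 1.27 (SE 0.166) in WT S1. Plcb3 overlaps Ppp1r14b on the opposite strand, and the library kit does not separate strands, so reads of the pair may be shared.

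Plcg1, the gamma enzyme, was moderately higher in PV libraries. It had 73.1, 91.8 and 96.4 CPM in PV WT V1 libraries and 53.0, 56.9 and 65.6 CPM in Camk2a WT V1 libraries, with no overlap. The log2 difference was 0.69 (SE 0.052, adjusted p = 2.24e-10) in WT V1 and 0.53 in WT S1, and 0.40 and 0.39 in KO V1 and KO S1. Plcg1 overlaps Zhx3 on the other strand, and its reads may be shared likewise.

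Both eta enzymes were higher in PV neurons. Plch1 had 30.9, 33.6 and 40.5 CPM in PV WT V1 libraries, against 4.98, 6.69 and 17.9 CPM in Camk2a WT V1 libraries, a log2 difference of 2.10 (SE 0.209, adjusted p = 4.64e-08). In S1 the values were 32.5, 36.4 and 40.6 CPM in PV WT libraries and 6.32, 13.7 and 20.3 CPM in Camk2a WT libraries, a log2 difference of 1.43 (SE 0.152). Plch2 had 162, 178 and 212 CPM in PV WT V1 libraries and 62.8, 79.3 and 96.7 CPM in Camk2a WT V1 libraries, a log2 difference of 1.18 (SE 0.084, adjusted p = 9.47e-11). Plch2 overlaps Gm10564 on the other strand. The lowest PV library of Plch2 exceeded the highest Camk2a library in all 4 pairs of groups, and the same held for Plch1. This does not set the eta enzymes apart. PV and Camk2a libraries did not overlap in any of the 4 pairs for Plcb1, Plcb3, Plcb4, Plcg1, Plcxd2 and Plcxd3 either. The share of all genes without overlap was not determined.

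The PLC-like pair went in opposite directions. Plcl1 had 27.6, 32.5 and 39.1 CPM in PV WT V1 libraries and 18.4, 20.02 and 24.3 CPM in Camk2a WT V1 libraries, a log2 difference of 0.71 (SE 0.082, adjusted p = 1.44e-07). In KO V1 the difference of Plcl1 was 0.39 (SE 0.181, adjusted p = 0.0633) and was not called, with 22.6 to 32.9 CPM in PV KO and 10.7 to 31.9 CPM in Camk2a KO libraries, which overlapped. Plcl2 had 98.0, 112 and 143 CPM in PV WT V1 libraries and 122, 157 and 174 CPM in Camk2a WT V1 libraries, which overlapped. Its log2 difference was −0.41 (SE 0.074, adjusted p = 4.08e-05), the smallest in size of the 10 members in WT V1.

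The X-domain pair also split. Plcxd2 had 46.8, 49.8 and 65.7 CPM in PV WT V1 libraries and 146, 182 and 226 CPM in Camk2a WT V1 libraries, a log2 difference of −1.78 (SE 0.088, adjusted p = 3.85e-13). Plcxd3 had 10.5, 13.2 and 22.5 CPM in PV WT V1 libraries and 1.70, 3.62 and 4.91 CPM in Camk2a WT V1 libraries, a log2 difference of 2.21 (SE 0.217, adjusted p = 2.58e-08). In S1 the Plcxd3 difference was 2.85 (SE 0.288), with 6.32 to 19.2 CPM in PV WT libraries and 0.839 to 2.78 CPM in Camk2a WT libraries.

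Against WT, PV libraries of KO mice held less Plch1, Plcxd2 and Plcl1 mRNA, and the other 7 members were within 0.11 of 0 on the log2 scale. With both areas of an animal summed (9 KO and 10 WT animals), 3 of 10 members were called, all lower in KO, against 1.36% of all genes tested (1.05% lower). The members' median log2 fold change was −0.03 and that of all genes 0.006. Since this contrast chose the members, nothing is read from that count.

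Plch1 (ENSMUSG00000036834) spans chr3:63696234-63899472 on the minus strand of mm10. It was the member with the largest difference. In V1 it had 17.7, 22.2 and 24.7 CPM in PV KO libraries, against 30.9, 33.6 and 40.5 CPM in PV WT libraries. In S1 the values were 21.4, 24.4 and 27.9 CPM in PV KO libraries and 32.5, 36.4 and 40.6 CPM in PV WT libraries. The highest KO library lay below the lowest WT library in both areas. The log2 fold change was −0.61 (SE 0.047) over both areas, or 34.4% less, and it was −0.65 (SE 0.055) in V1 and −0.55 (SE 0.053) in S1. Leaving out each animal in turn kept it between −0.62 and −0.58.

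Plcxd2 (ENSMUSG00000087141, chr16:45959263-46010218, minus strand) came next. In V1 it had 31.9, 39.2 and 47.8 CPM in PV KO libraries and 46.8, 49.8 and 65.7 CPM in PV WT libraries, where P9 was the 1 KO library inside the WT range. In S1 it had 36.0, 43.6 and 67.9 CPM in PV KO libraries and 49.3, 56.4 and 66.0 CPM in PV WT libraries, and the highest of all was the KO library of P23. The log2 fold change was −0.34 (SE 0.060) over both areas, −0.42 (SE 0.066) in V1 and −0.27 (SE 0.089) in S1.

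Plcl1 (ENSMUSG00000038349, chr1:55405921-55754285, plus strand), which overlaps Gm38056 on the same strand, had 22.6, 28.6 and 32.9 CPM in PV KO V1 libraries and 27.6, 32.5 and 39.1 CPM in PV WT V1 libraries, which overlapped widely. In S1 it had 25.3, 28.3 and 33.6 CPM in PV KO libraries and 30.5, 35.9 and 43.4 CPM in PV WT libraries. The log2 fold change was −0.26 (SE 0.058) over both areas, and without the animals P9, P22 and P24 it was −0.27 (SE 0.065). In 6 fits under other settings the value over both areas lay between −0.27 and −0.26. Of these 6 fits, 5 called Plcl1, and nothing is read from that count. In single areas 2 of 10 members were called in V1 (Plch1 and Plcxd2), against 0.191% of genes (0.179% lower), and 2 of 10 in S1 (Plch1 and Plcl1), against 0.77% (0.543% lower), and nothing is read from these counts either.

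Among the other 7 members in PV, Plch2, the other eta enzyme, averaged 183 ± 17.9 CPM in PV KO V1 and 178 ± 15.1 CPM in PV WT V1 libraries (SD, n = 10 each), a log2 fold change over both areas of 0.04 with a 95% interval of −0.03 to 0.11. The intervals were −0.00 to 0.16 for Plcb1, −0.09 to 0.05 for Plcb4 and −0.13 to 0.25 for Plcb3. For Plcg1 the interval was 0.02 to 0.20, for Plcl2 −0.15 to 0.06 and for Plcxd3 −0.33 to 0.28. PV interneuron markers summed to 9262 to 12350 CPM in PV KO and 9073 to 12330 CPM in PV WT libraries, and 0 of 12 were called in this comparison by edgeR or DESeq2, nor had any an unadjusted p under 0.05. In such libraries, fewer cells of a type and less mRNA per cell cannot be told apart.

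Upstream sequence of the 3 members lower in KO PV libraries is shown because they moved together. RefSeq sequence (GRCm38.p6) was matched for 9 of 10 members, and each line below gives the 250 bases before a start site, 5′ to 3′ on the gene's strand, shown for the outer of 2 Plch1 starts, with GC boxes (GGGCGG or its reverse complement CCGCCC) in capitals.
Plch1, chr3:63899463-63899712, minus strand: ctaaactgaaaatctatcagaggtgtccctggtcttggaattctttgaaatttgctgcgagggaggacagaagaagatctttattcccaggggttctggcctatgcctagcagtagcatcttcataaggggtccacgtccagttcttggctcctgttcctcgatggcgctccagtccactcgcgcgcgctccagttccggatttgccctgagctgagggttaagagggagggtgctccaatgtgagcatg
Plcxd2, chr16:46010414-46010663, minus strand: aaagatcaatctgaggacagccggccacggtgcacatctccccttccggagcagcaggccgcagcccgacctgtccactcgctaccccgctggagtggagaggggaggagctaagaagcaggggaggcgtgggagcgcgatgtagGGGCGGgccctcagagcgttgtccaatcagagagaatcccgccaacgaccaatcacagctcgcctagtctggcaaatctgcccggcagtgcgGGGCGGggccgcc
Plcl1, chr1:55405696-55405945, plus strand: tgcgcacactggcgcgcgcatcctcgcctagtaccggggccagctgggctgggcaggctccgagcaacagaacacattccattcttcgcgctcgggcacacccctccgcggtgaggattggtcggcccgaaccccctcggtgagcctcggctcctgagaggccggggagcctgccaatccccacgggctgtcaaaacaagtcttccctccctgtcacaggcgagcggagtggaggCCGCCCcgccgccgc
GC content was 52.8% for Plch1, 65.6% for Plcxd2 and 69.2% for Plcl1, against a median of 52.4% over 32851 promoters. Both strands were searched for 5 motifs, none of which was in all 3 sequences. The GC box was found in none of the Plch1 bases, at 2 places for Plcxd2 and at 1 for Plcl1, and 32.7% of all promoters of that length held it. The E-box CANNTG was found 1 time, in Plcl1, and in 66.2% of promoters. The cyclic AMP response element TGACGTCA (1.5% of promoters), the TATA box TATAAA (12.4%) and the MEF2 core TATTTATA (1.6%) were in none of the 3. Capitals mark the GC box alone, because the E-box was too common to set a sequence apart.

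**Figure D2:**
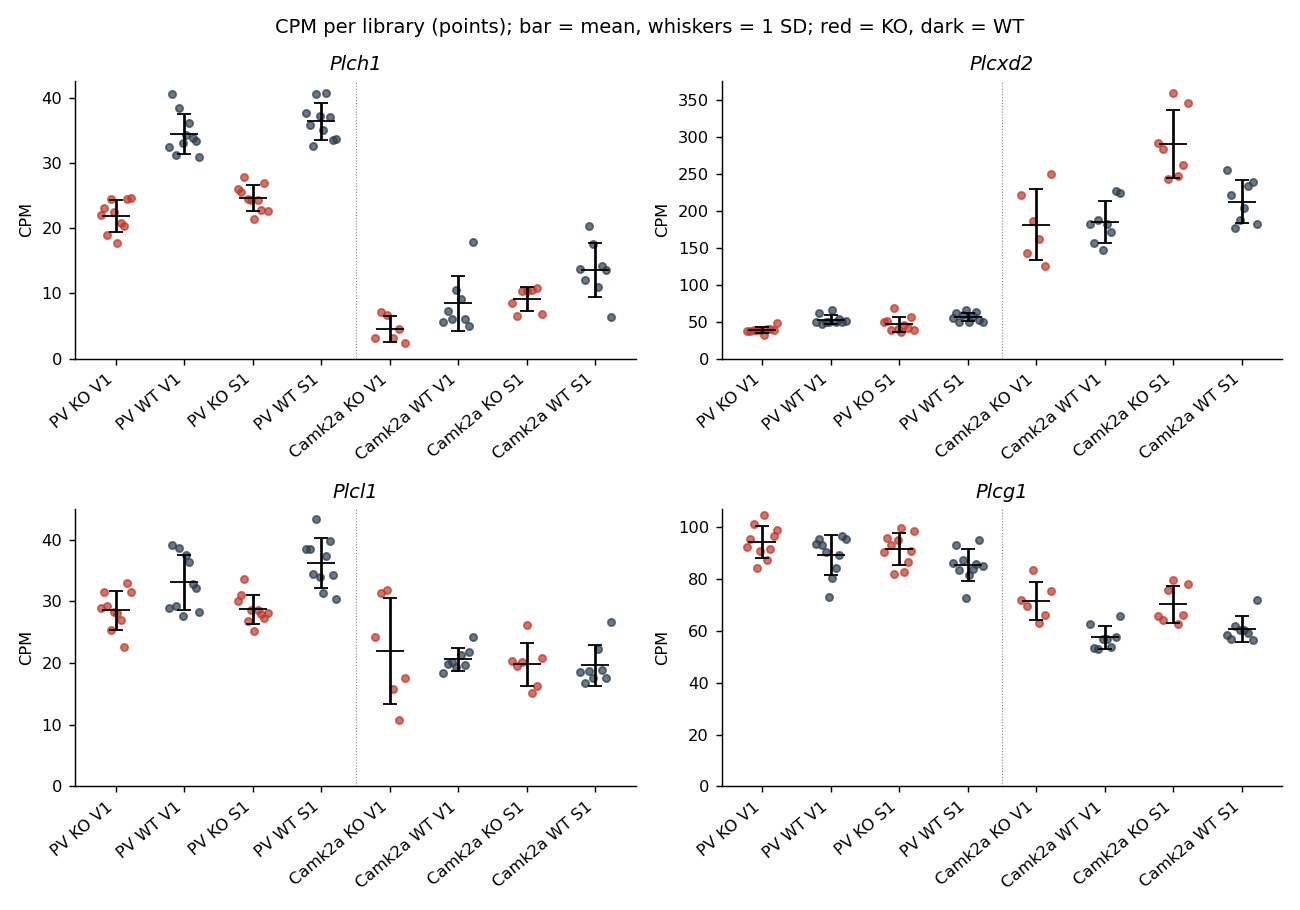
CPM of Plch1, Plcxd2, Plcl1 and Plcg1 in each library of the 8 groups (points, with mean and 1 SD). Plch1 of PV KO libraries (17.7 to 27.9 CPM) lies below all PV WT libraries (30.9 to 40.6 CPM), and Plcxd2 is highest in Camk2a KO S1.

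In Camk2a neurons the same genotypes were compared. The rule for the members names PV values, but the family was proposed with earlier results of the Camk2a libraries known too. Plch1 fell and Plcg1 rose in KO, and the remaining 8 members did not pass the test. Over both areas (6 KO and 7 WT animals) 2 of 10 members were called, 1 in each direction, against 4.11% of all genes, 2.05% in each direction.

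Plch1 averaged 6.87 ± 1.80 CPM per animal in Camk2a KO (SD, n = 6) and 11.4 ± 2.34 CPM in Camk2a WT (n = 7). The highest KO animal had 8.76 CPM and the lowest WT animal 9.09 CPM, so the groups did not overlap. The log2 fold change was −0.78 (SE 0.179, adjusted p = 0.0306 in edgeR's quasi-likelihood test), or 41.9% less. By area, Plch1 had 2.45, 3.84 and 7.18 CPM in Camk2a KO V1 libraries and 4.98, 6.69 and 17.9 CPM in Camk2a WT V1 libraries. In S1 it had 6.48, 10.3 and 10.9 CPM in Camk2a KO libraries and 6.32, 13.7 and 20.3 CPM in Camk2a WT libraries. The groups overlapped in each area, and neither single-area test passed (a KO change of −50.1%, adjusted p = 0.152 in V1, and −33.3%, adjusted p = 0.109 in S1, by edgeR). Without C24, whose 2 libraries hold the highest V1 and the lowest S1 value of the WT animals, Plch1 passed in S1 (log2 −0.67, SE 0.156, adjusted p = 0.0158).

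Plch1 is itself higher in PV neurons, and PV markers lay on the same side of 0 in the Camk2a comparison, whose part in the result was not tested beyond the fits given here. The 12 PV markers summed to 258 to 733 CPM in Camk2a KO V1 and 297 to 1454 CPM in Camk2a WT V1 libraries, and to 364 to 1410 CPM in Camk2a KO S1 and 294 to 1863 CPM in Camk2a WT S1 libraries. Their median KO minus WT log2 fold change was −1.06 over both areas, with 11 of 12 negative, and 0 of 12 called by edgeR or DESeq2 or at an unadjusted p under 0.05. Of other marker lists tested, 2 of 10 astrocyte, 1 of 10 oligodendrocyte and 1 of 10 vascular markers were called lower in KO, with median log2 values of 0.04 for astrocyte, −0.18 for oligodendrocyte and −0.02 for vascular markers. Without C3, C18 and C19 the Plch1 difference was −0.70 (SE 0.171, adjusted p = 0.0818) and no longer called. With a PV marker score as a covariate, an analysis chosen after the data were seen, it was −0.69 (SE 0.149, adjusted p = 0.0225). Leaving out single animals moved it between −0.89 and −0.69, and 9 of those 13 fits called it.

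**Figure D3:**
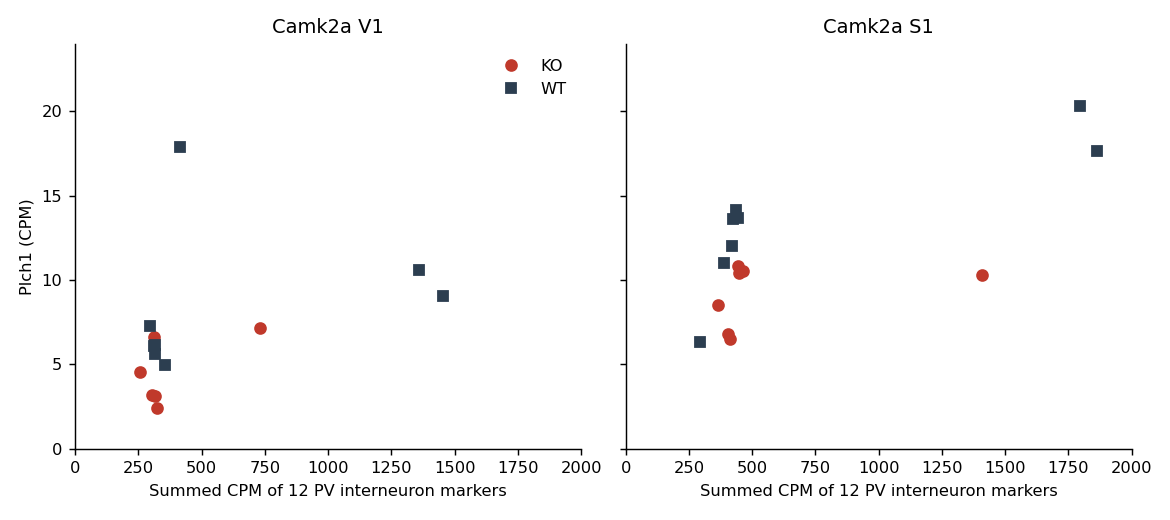
Plch1 CPM in each Camk2a library against the summed CPM of 12 PV interneuron markers (x axis), for KO (circles) and WT (squares) in V1 and S1. Libraries of C18, C19 and C3 lie to the right, from 733 to 1863 CPM of markers, and the WT V1 library of C24 has 17.9 CPM of Plch1 at 414 CPM of markers.

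Plcg1 (ENSMUSG00000016933, chr2:160731300-160775760, plus strand) rose in Camk2a KO. Per animal it had 62.9, 70.3 and 81.5 CPM (lowest, median, highest) in Camk2a KO and 54.9, 57.1 and 68.8 CPM in Camk2a WT, and C24 was the 1 WT animal inside the KO range. The log2 fold change was 0.28 (SE 0.068, adjusted p = 0.0332), or 21.7% more. In V1 it was 0.31 (SE 0.070, adjusted p = 0.0421), the 1 member of 10 called there, against 1.4% of genes (0.62% higher). That V1 call was lost without C3, C18 and C19 (0.32, SE 0.088, adjusted p = 0.158) and with the PV marker covariate (0.30, SE 0.074, adjusted p = 0.0572). In S1 it was 0.21 (SE 0.071, adjusted p = 0.0986), and without C24 it was called there (0.25, SE 0.061, adjusted p = 0.0205). Without C3, C18 and C19 the value over both areas was 0.29 (SE 0.088, adjusted p = 0.128), and only 4 of 13 fits that left out 1 animal called it, with values from 0.24 to 0.32. In PV the same gene differed by 0.11 (SE 0.047).

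Plcxd2 rose in Camk2a KO libraries of S1, the 1 member of 10 called there, against 4.09% of genes (1.99% higher). DESeq2 called 3 members there, Plcxd2, Plcb1 and Plch1. Plcxd2 had 242, 283 and 359 CPM in Camk2a KO S1 libraries and 177, 212 and 255 CPM in Camk2a WT S1 libraries, which overlapped. The log2 fold change was 0.43 (SE 0.097, adjusted p = 0.0228), or 34.6% more, and all 7 KO libraries lay above the WT mean. Without C3, C18 and C19 it was 0.42 (adjusted p = 0.0373), and without C24 0.41 (adjusted p = 0.0195). In V1 Plcxd2 had 125, 175 and 250 CPM in Camk2a KO and 146, 182 and 226 CPM in Camk2a WT libraries, a log2 value of −0.02 (SE 0.146, adjusted p = 0.970).

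Plcb1, the most abundant member per kb in Camk2a neurons, had 501, 543 and 763 CPM in Camk2a KO S1 libraries and 427, 456 and 504 CPM in Camk2a WT S1 libraries. Its log2 value there was 0.28 (SE 0.080, adjusted p = 0.0546), just short of the threshold, and without C24 it was 0.30 (SE 0.080, adjusted p = 0.0262). Over both areas it was 0.20 (SE 0.081, adjusted p = 0.158). The other members over both areas had 95% intervals of −0.35 to 0.02 for Plch2, −0.54 to 0.15 for Plcb3, −0.12 to 0.24 for Plcb4, −0.26 to 0.31 for Plcl1, −0.21 to 0.10 for Plcl2 and −0.07 to 0.60 for Plcxd3.

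**Figure D4:**
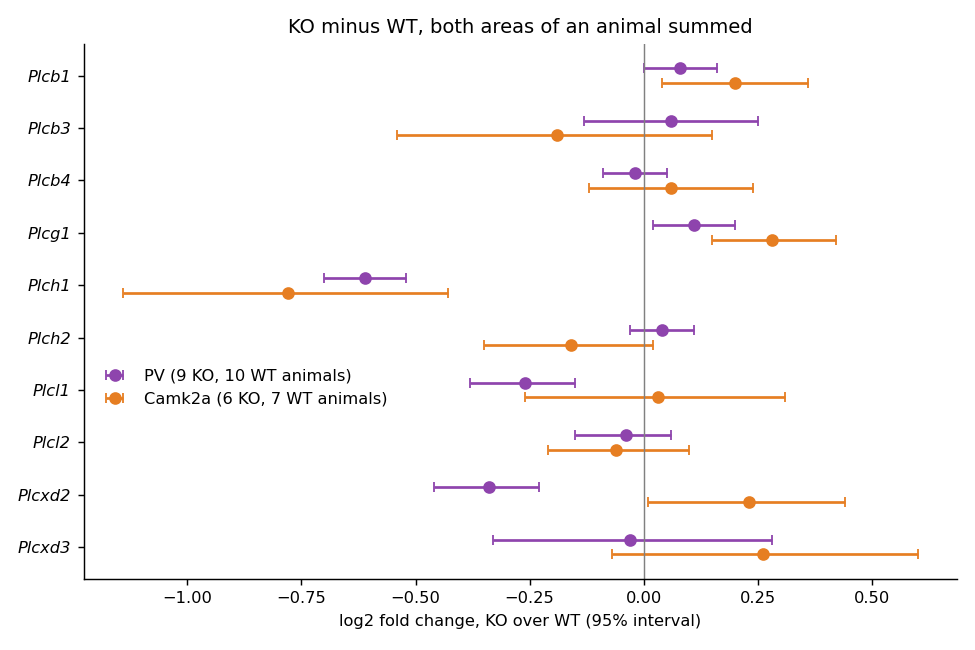
KO minus WT log2 fold change of each member over both areas, in PV (9 KO and 10 WT animals) and in Camk2a (6 KO and 7 WT animals), with 95% intervals. Plch1 is below 0 in both classes (−0.61 and −0.78), and Plcxd2 is below 0 in PV (−0.34) and above 0 in Camk2a (0.23).

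The genotype effect was also compared between classes. Its difference, PV minus Camk2a, was −0.56 (SE 0.120) for Plcxd2 on the log2 scale, made of −0.34 in PV and 0.23 in Camk2a. Plcxd2 was the 1 member of 10 past the threshold, against 0.832% of genes (0.325% lower), and it was no longer called without P9, P22 and P24 (−0.54, SE 0.130). As the PV arm chose the members, this difference is a description. For Plch1 the difference was 0.16, with a 95% interval of −0.14 to 0.47. It was 0.21 (0.03 to 0.39) for Plch2, −0.32 (−0.61 to −0.02) for Plcl1 and −0.17 (−0.33 to −0.01) for Plcg1. None of these passed the threshold after adjustment. Between areas, no member's genotype effect passed the test in PV or Camk2a, where edgeR called 0 genes of all tested in either class. At an unadjusted p under 0.05 there were 312 genes in PV and 608 in Camk2a, and DESeq2 called 0 and 1 over all genes and no member. The estimate farthest from 0 in units of its error was Plcxd2 in Camk2a, −0.47 (SE 0.187, adjusted p = 1.00).

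V1 and S1 were compared within each class and genotype. In PV WT libraries 2 of 10 members were called, Plch2 and Plcb4, both lower in V1, against 20.6% of genes (9.95% lower). Plch2 (chr4:154983115-155056784, minus strand) had 162, 178 and 212 CPM in V1 and 184, 209 and 238 CPM in S1, a log2 difference of −0.23 (SE 0.048, adjusted p = 0.00642). Plcb4 (chr2:135659011-136014593, plus strand) had 51.1, 60.4 and 73.8 CPM in V1 and 53.8, 69.8 and 78.4 CPM in S1, a difference of −0.19 (SE 0.061, adjusted p = 0.0294). V1 was below S1 in 9 of 10 animals for each, the exception being P22. With the animal as a block, Plch2 (adjusted p = 0.0149) and Plcb4 (adjusted p = 0.0449) were still called. Without P22 the difference was −0.27 for Plch2 and −0.26 for Plcb4, and Plcb3 was called too, higher in V1 (0.51, SE 0.143, adjusted p = 0.0105). Marker lists also differed between the areas in PV WT, and their part was not tested. Of PV markers 6 of 12 were lower and 2 higher in V1 (median −0.17), while 6 of 12 excitatory (0.29), 7 of 10 astrocyte (0.44), 4 of 6 oligodendrocyte precursor (0.56), 4 of 10 microglial (0.47) and 5 of 10 vascular markers (0.62) were higher. PV markers summed to 9073 to 12010 CPM in V1 and 10850 to 12330 CPM in S1, and excitatory markers to 1328 to 2494 CPM in V1 and 1347 to 1673 CPM in S1. In PV KO the same 2 of 10 were called, against 7.56% of genes (4.09% lower), with −0.20 (SE 0.055, adjusted p = 0.0341) for Plch2 and −0.17 (SE 0.052, adjusted p = 0.0467) for Plcb4, and 4 of 12 PV markers were lower and 2 higher in V1 there. The block removed both calls there (adjusted p = 0.0707 and 0.0886), and with it no gene in the table was called. In PV KO, V1 was below S1 in 8 of 9 animals for each, the exception being P9. Without P9 and P24 both passed in edgeR (adjusted p = 0.00197 and 0.00326). So did Plch1 at −0.22 (adjusted p = 0.0121) and Plcxd2 at −0.33 (adjusted p = 0.0106). P9, P22 and P24 stood out by the area score. Leaving them out favours larger differences between areas, so nothing is read from the gained calls.

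In Camk2a KO libraries 3 of 10 members were called between areas, all lower in V1, against 13.1% of genes (6.65% lower). Plch1 had 2.45, 3.84 and 7.18 CPM in V1 and 6.48, 10.3 and 10.9 CPM in S1, a log2 difference of −1.04 (SE 0.194, adjusted p = 0.00223), and V1 was lower in 6 of 6 animals with both areas. Plcb4 had 103, 119 and 142 CPM in V1 and 154, 172 and 246 CPM in S1, with no overlap, a difference of −0.55 (SE 0.102, adjusted p = 0.00182). Plcxd2 had 125, 175 and 250 CPM in V1 and 242, 283 and 359 CPM in S1, a difference of −0.68 (SE 0.155, adjusted p = 0.00920). With the animal as a block, Plch2 (−0.41, adjusted p = 0.00204), Plcb1 (−0.21, adjusted p = 0.0237) and Plcxd3 (0.43, adjusted p = 0.0284) passed too, so Plcxd3 was the member higher in V1. Of the PV markers, 11 of 12 were also negative between areas in Camk2a KO (median −0.49, 0 called by edgeR and 3 by DESeq2, 5 at an unadjusted p under 0.05), with sums of 258 to 733 CPM in V1 and 364 to 1410 CPM in S1, and their part in the Plch1 difference was not tested.

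In Camk2a WT libraries 0 of 10 members were called between areas by edgeR, against 0.359% of genes, and 7 of the 10 estimates were negative. PV markers were negative in 10 of 12 cases there (median −0.33), with 0 called by edgeR or DESeq2 or at an unadjusted p under 0.05. At an unadjusted p under 0.05 there were 4 members, and DESeq2 called 1, Plcxd3 (0.83, adjusted p = 0.0230). C24 was the 1 of 7 animals in which Plch1, Plch2, Plcb4, Plcxd2 and Plcxd3 each ran against the other 6. Its Plch1 was 17.9 CPM in V1 and 6.32 CPM in S1, while the other 6 animals had 4.98 to 10.6 CPM in V1 and 12.1 to 20.3 CPM in S1. Without C24, 4 members were called, with Plch1 at −1.03 (SE 0.175, adjusted p = 9.01e-04), Plch2 at −0.40 (adjusted p = 0.00155), Plcb4 at −0.39 (adjusted p = 6.29e-04) and Plcxd3 at 1.01 (SE 0.245, adjusted p = 0.00848), and the count over all genes was 3405 in place of 56. As given above, the V1 and S1 libraries of C24 each lay on the other area's side, and the labels also set its S1 library apart by batch and by a different wording of the cell class. The part of each in the result was not tested. C24 stood out by the area score, so leaving it out favours larger differences between areas. Nothing is read from the calls gained without it.

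**Figure D5:**
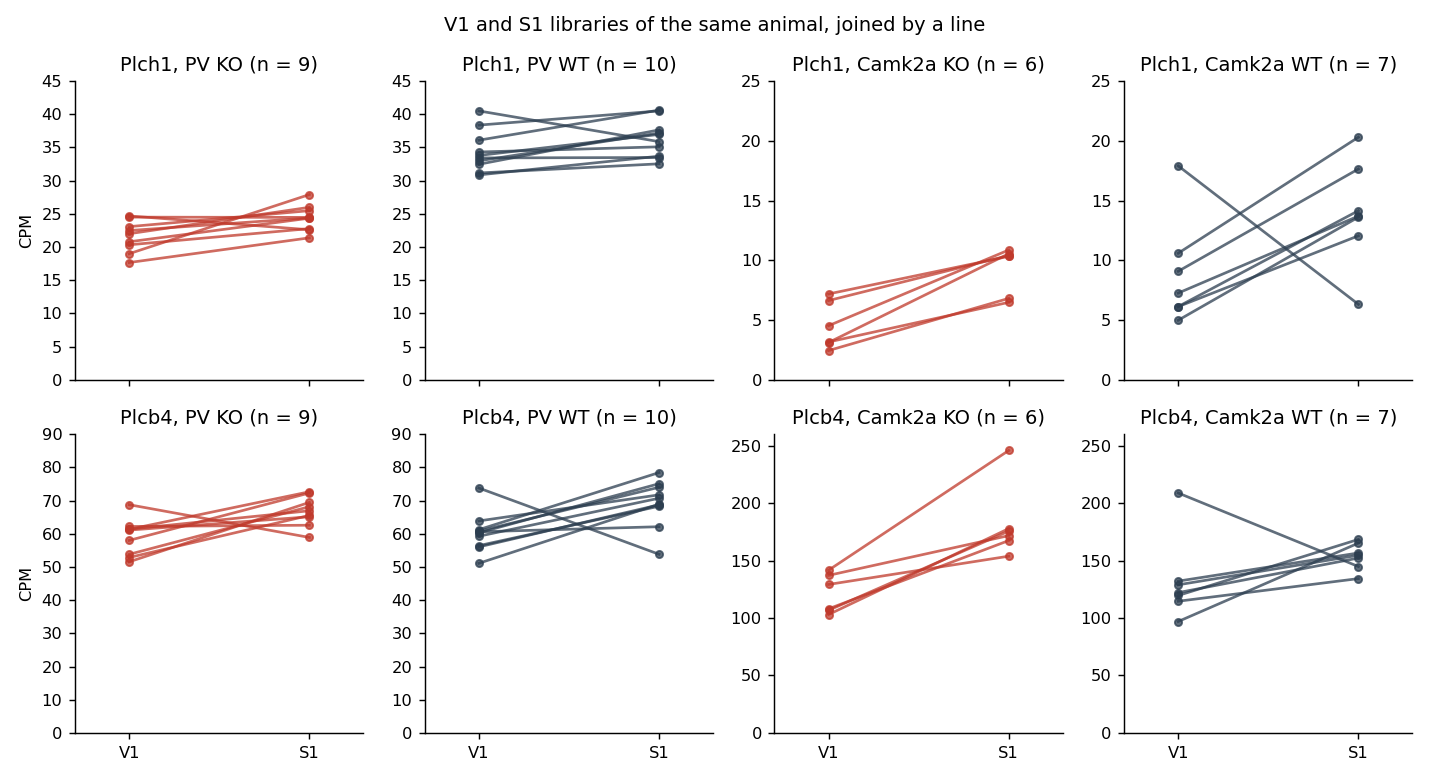
CPM of Plch1 (top) and Plcb4 (bottom) in the V1 and S1 libraries of the same animal, joined by a line, for PV KO, PV WT, Camk2a KO and Camk2a WT. In 6 of 7 Camk2a WT animals both genes are lower in V1, and C24 runs the other way.

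Plch1 was the member with the largest KO difference in PV, and the genes most like it were sought over the 40 PV libraries among 10476 genes with a mean of at least 5 CPM. By Pearson correlation of log2 CPM they were Fmr1 (0.91), Atmin (0.91), Klhl14 (0.83), Whrn (0.81) and Arhgap35 (0.81). The 4 groups of libraries differ in these genes, and with group means removed the values were 0.38, 0.58, 0.11, 0.25 and 0.44 in that order. Among members, Plcl1 and Plcxd2 each had 0.78, with 0.63 and 0.46 after removal of group means. Before and after that removal, Plcxd3 had 0.22 and 0.56, Plcb4 0.31 and 0.34, and Plcl2 0.33 and 0.34. Plch2 had 0.11 and 0.21, Plcb1 −0.14 and 0.24, and Plcg1 −0.46 and −0.19. With group means removed, Plcxd3 thus stood above Plcxd2. Plcb3 lay under the cut of 5 CPM. The libraries share animals and a common scaling, and the correlations are given as a description.

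Genes around the PLC reaction were counted from 5 lists. In PV over both areas 1 of 7 other PLC genes tested was called, higher in KO, which was Plcxd1, an X-domain relative (log2 0.31, SE 0.074, adjusted p = 0.0308). Over all genes 1.36% were called in this comparison (1.05% lower). Of 25 genes of PIP2 supply and removal 2 fell, the PIP2-making kinase Pip5k1b (−0.50, SE 0.094, adjusted p = 0.00527) and the phosphatase Synj2 (−0.18, SE 0.040, adjusted p = 0.0195). None of 18 IP3 and calcium release genes and none of 35 genes of the diacylglycerol arm was called by edgeR, with 4 and 5 at an unadjusted p under 0.05 and 0 and 2 called by DESeq2. The list medians lay between −0.06 and −0.01, against 0.006 over all genes. Of these 3 calls, the one of Pip5k1b was kept without P9, P22 and P24, and those of Plcxd1 (adjusted p = 0.200) and Synj2 (adjusted p = 0.0670) were not.

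In Camk2a over both areas, where 4.11% of all genes were called, none of 7 other PLC genes was called by edgeR or DESeq2, and 0 had an unadjusted p under 0.05. The adrenergic receptor Adra1b fell (−0.32, SE 0.082, adjusted p = 0.0444), 1 of 21 in its list, and among the PIP2 genes the CDP-diacylglycerol synthase Cds1 fell (−0.18, SE 0.043, adjusted p = 0.0316). Neither was called without C3, C18 and C19. None of 18 IP3 and none of 35 diacylglycerol genes was called over both areas by edgeR, with 4 and 7 at an unadjusted p under 0.05 and 1 and 2 called by DESeq2. In V1, against 1.4% of genes, the kinase Prkd3 rose (0.80, SE 0.172, adjusted p = 0.0381), and without C3, C18 and C19 it was not called. In S1, against 4.09% of genes, the IP3 kinase Itpkb (−0.71, SE 0.118, adjusted p = 0.00370) and Pip5k1b (−0.42, SE 0.090, adjusted p = 0.0187) fell.

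The same lists were set between classes, where 77.3% of all genes were called (39.8% higher and 37.5% lower). Their counts are read against that share and are a description. Most markers of glia and vessels given above were called higher in PV too. The summed markers of astrocytes and of other interneurons had lower medians in PV. In WT V1, PV minus Camk2a, 7 Gq and receptor genes were higher and 12 lower of 20 tested, with Oxtr (1.88) and Adra1a (3.28) higher and the muscarinic receptors Chrm1 (−2.20) and Chrm3 (−2.20) lower. Of 18 IP3 genes 6 were higher, among them the IP3 receptor Itpr2 (1.97), and 8 lower, among them the IP3 kinase Itpka (−3.96). Of 35 diacylglycerol genes 12 were higher, among them the diacylglycerol kinase Dgkq (1.07), and 18 lower, among them Rasgrp1 (−2.55) and another such kinase, Dgkz (−1.73). Of 25 PIP2 genes 10 were higher and 12 lower, with Inpp5b (1.01) and the kinase Pip5k1a (−1.47) among them. Of the 7 other PLC genes 4 were higher, Plcg2 (3.01) and Plcd4 (1.72) with the smallest p among them, and Plcxd1 (−1.77) was the 1 lower.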

How the data were processed

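The authors deposited 1 table of estimated counts per gene and library, in which 71.1% of values were not whole numbers. STAR, Salmon, limma and the build mm10 are named in the submitters' processing notes; the role and version of each tool and the annotation are not given in the sources used here. Per the labels' protocols, the kit was Ovation RNA-Seq System V2, which adds no molecular identifiers and does not separate strands, and read as pairs. The table has 17634 genes, of which 20 have no name in the annotation used for symbols and lengths (GENCODE M21).

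The deposited estimated counts, rounded, were fitted in edgeR 4.0.16 (R 4.3.3) with filterByExpr, TMM scaling, robust quasi-likelihood tests, labelled sex as covariate, and adjustment by Benjamini-Hochberg across the genes tested; genes under 0.05 were called. KO and WT were compared within each class, once on the summed V1 and S1 counts of animals that gave both, and once per area. Other fits compared classes, areas and the genotype effect between them, 17 comparisons in all. Intervals are 95% intervals of the log2 fold change, with an error that includes the spread between animals. They use a normal multiple of the SE, which was taken back from the test statistic. With few animals they are narrower than the test. Plcxd2 in Camk2a over both areas had an interval of 0.01 to 0.44 and an unadjusted p = 0.0588 in edgeR's quasi-likelihood test. The fitting script was tested on simulated counts. Levels are CPM on TMM-scaled totals; correlations used log2(CPM + 0.5).

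Alternatives were DESeq2 1.42.0, RLE size factors, no filter, no sex term, animals left out, and, between areas, the animal as a replicate block. The labels give both areas of an animal the same number, so the block pairs libraries of the same animal; the median correlation of their deviations from group means was 0.57 in Camk2a KO, 0.56 in Camk2a WT, 0.20 in PV KO and 0.47 in PV WT. Sex by Y-linked genes and a PV marker covariate were added after seeing the data. The members and all gene lists were chosen with earlier results of these data known. Named genes were the members, Fmr1 and up to 2 called genes per pathway list and direction with the smallest p. Some genes of the lists are not reported here.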

Additional observations from a re-analysis of the deposited data

Results flagged for a closer look

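Of 80 sets of libraries (10 members in 8 groups), 8 held a library far from the rest of its group, where chance gives about 1 in 20. C24 (WT) accounted for 4 of them. Its Camk2a V1 library had the highest Plch1 of its group (17.9 CPM, next 10.59) and the highest Plcb4 (208.8 CPM, next 132.1), and its S1 library had the lowest Plch2 (66.93 CPM, next 96.1) and the highest Plcg1 (72.07 CPM, next 62.01). The Camk2a KO S1 library of C4 held 3, the highest Plcb1 (763.0 CPM, next 556.4), Plcb4 (245.8 CPM, next 177.8) and Plcl2 (180.7 CPM, next 142.3). The PV WT V1 library of P22 had the highest Plch2 of its group (211.5 CPM, next 186.4).

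The genotype effect on Plcxd2 differed between classes by −0.56 on the log2 scale (PV minus Camk2a), a contrast that includes the values by which the members were chosen.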

How the results depend on the processing

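Of 1070 values of members refitted under another setting, 1026 were counted as kept, 21 gained a call, 6 lost one and 17 changed sign. For KO against WT in PV and the genotype effect between classes, kept means a move of less than 1 SE. Calls gained or lost and sign changes of uncalled values were not counted there. In the other comparisons kept means the same direction and side of the threshold. Of 320 refits without 1 animal, 301 were likewise counted as kept, 13 lost a call and 6 changed sign. The 13 and the 6 were all in Camk2a. In PV, Plcxd3 ran from −0.08 to 0.04 without 1 animal, a sign change that was not counted. All 80 group levels moved by less than 1 SD with raw totals in place of TMM. No sign change touched a called value, and the cause of the changes below was not tested.

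Over all genes, DESeq2 called 471 for KO against WT in PV over both areas, 113 in PV V1, 310 in PV S1, 1713 in Camk2a over both areas, 868 in Camk2a V1 and 1443 in Camk2a S1. For V1 against S1 it called 2061 in PV KO and 1346 in Camk2a WT, and for the genotype effect 270 between classes and 1 between areas in Camk2a. Without P9, P22 and P24 there were 81 in PV over both areas, 81 in PV S1 and 74 between classes. V1 against S1 gave 5060 in PV WT without P22 and 3479 in PV KO without P9 and P24. Without C3, C18 and C19 there were 131 in Camk2a over both areas, 15 in V1, 299 in S1 and 92 between classes, and without C18 and C19 there were 0 for V1 against S1 in Camk2a WT. Without C24 there were 1347, 351 and 1634 in Camk2a over both areas, V1 and S1, 3405 for the areas in Camk2a WT and 268 between classes. Without the sex term Camk2a S1 gave 990 and the areas in Camk2a WT 385, and sex by Y-linked genes gave 48 in PV V1. With the animal as a replicate block, V1 against S1 gave 0 in PV KO, 7 in Camk2a WT and 3276 in Camk2a KO. Leaving out 1 animal gave 144 to 255 in PV and 235 to 1347 in Camk2a.

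Among KO minus WT values in Camk2a over both areas, Plcl1 (0.03) ran from −0.06 to 0.13 and Plcb4 (0.06) from −0.02 to 0.13 without 1 animal, and Plcl1 was −0.00 without C3, C18 and C19. In V1 Plcl1 was 0.00 with no filter, 0.09 without the sex term, 0.05 without C24 and 0.03 with the PV marker covariate, and without C24 Plcb4 was 0.05 and Plcxd2 0.03. In S1 Plcl1 was 0.01 without the sex term and 0.06 without C24. Between areas in PV KO, Plcxd3 was 0.02 under the block and 0.05 without P9 and P24. The difference of the genotype effect between areas was 0.01 for Plcxd3 in PV without P9, P22 and P24. In Camk2a it was 0.01 for Plcb3 and −0.05 for Plcl1 under the block, 0.07 for Plcb3 without C3, C18 and C19, and 0.05 for Plcb3 and 0.02 for Plch1 without C24.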
